A study of Sus scrofa with 20 samples.

Results

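Of the 20 RNA-Seq libraries in the series, 7 compare LLC-PK1 cells in which polycystin-2 (PC2) was silenced alone with cells in which MRTF-A was silenced as well. LLC-PK1 is a porcine proximal tubule epithelial line, and all 7 libraries are poly(A) RNA from this line after transfection with small interfering RNAs (siRNAs) and serum starvation. The libraries were chosen by their labels, with 3 libraries of siPC2 (replicates 2, 3 and 4) and 4 of siPC2+siMRTF-A (replicates 1, 2, 3 and 4). All measured transcripts and both directions were considered, whether or not siPC2 itself had changed them. The other libraries are 4 with a non-related control siRNA (siNR), 5 with an siRNA against polycystin-1 (siPC1) and 4 with siPC1+siMRTF-A. No group received siMRTF-A alone, so an effect of MRTF-A silencing in cells with intact polycystins was not measured. The labels do not say whether the libraries of a group came from separate cultures, and p-values therefore measure the spread between libraries only. The labels list no siNR in the cells given siPC2 alone, whereas the study's methods state that the amount of control siRNA was matched within experiments and one of its legends gives siNR as the counterpart of siMRTF-A. The loss of MRTF-A and any off-target effect of the single siMRTF-A sequence cannot be told apart. The study's text differs from the labels in the sizes of every group except siPC2+siMRTF-A, and gives more than one siMRTF-A concentration. The groups and their n follow the labels throughout.

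PC2, the product of PKD2, is a calcium-permeable channel that forms a complex with polycystin-1, and loss of either causes polycystic kidney disease. MRTF-A is a coactivator of serum response factor (SRF). It is held in the cytosol by monomeric actin and enters the nucleus when actin polymerizes, where with SRF it drives genes of the cytoskeleton, of contractility and of the matrix. The comparison asks which transcripts of PC2-silenced tubular cells depend on MRTF-A. The values are estimated counts of Ensembl transcripts, scaled to a common library size (normalized counts). The transcript identifiers are not paired with genes in the files used here, and the reference tables used here match 0 of them, since they list gene identifiers only. The results are therefore given by transcript, the knockdown of PKD2 and MRTF-A and the epithelial markers were not analysed here, and no transcript is assigned a function.

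The total estimated count ranged from 11790504 to 36740001 in the siPC2 libraries and from 36981625 to 71007731 in the siPC2+siMRTF-A libraries. The shallowest was siPC2 replicate 2, in which a normalized count of 100 rested on 32.2 reads, against 78.2 to 98.2 in the other siPC2 libraries and 97.3 to 194 with siMRTF-A. On the log2 scale of normalized counts plus 1 it correlated at 0.868 with the average of the other siPC2 libraries, for which the same measure was 0.907 and 0.901.

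The addition of siMRTF-A to siPC2 lowered 256 transcripts and raised 184 of the 27702 tested, which are 0.924% and 0.664% of them (edgeR's quasi-likelihood test). Calling required an adjusted p (Benjamini-Hochberg) no higher than 0.05, a log2 fold change past 0.6 in either direction and normalized counts averaging 50 or more over the 20 libraries. In both directions 440 transcripts were called (1.59%). By the adjusted p alone, 676 were lower (2.44%) and 605 higher (2.18%), and 4119 (14.9%) had an unadjusted p under 0.05. Most changes were moderate. The log2 fold change of the lowered transcripts ranged from -0.60 to -5.92 with a median of -0.81, and that of the raised transcripts from 0.60 to 12.69 with a median of 0.80, while the median over all tested transcripts was 0.02. Only 80 of the lowered and 56 of the raised transcripts changed by more than 1 on this scale. The fold threshold cut through a dense range, since 65 lowered and 67 raised transcripts lay within 0.1 above it, and 106 and 82 others that met the remaining criteria lay within 0.1 below it. Without siPC2 replicate 2, the shallow library, 241 transcripts were lower and 152 higher, of which 206 and 117 were among those above. With DESeq2, 333 were lower and 296 higher, with 254 and 177 of those above among them. The count also depended on how the fold change was used. When the test itself asked for a change beyond 0.6 (glmTreat in edgeR), 41 lower and 12 higher transcripts were left.

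**Figure D1:**
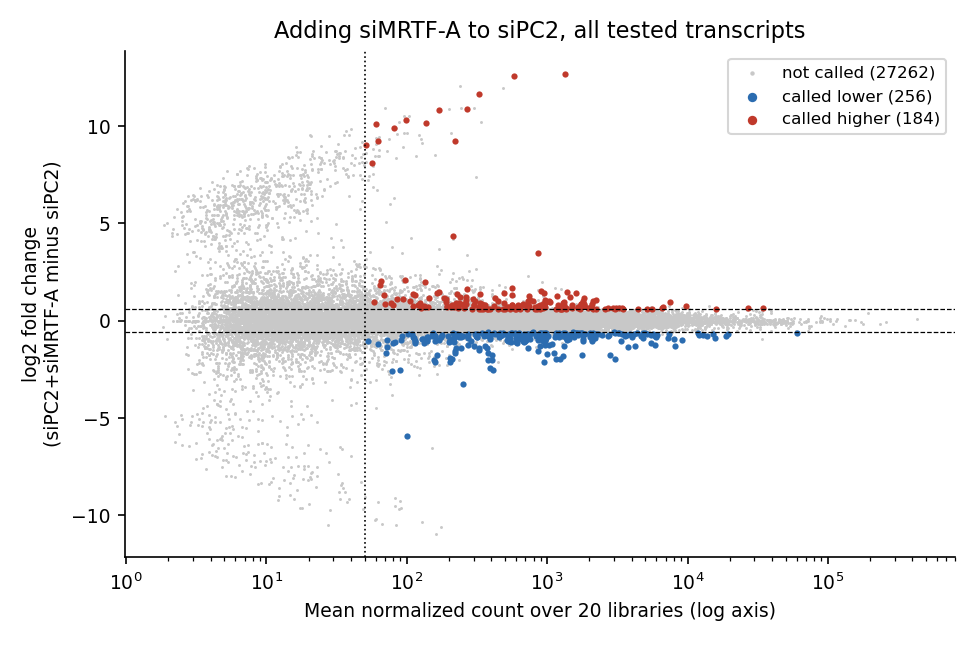
Log2 fold change between siPC2+siMRTF-A and siPC2 (vertical axis) against the mean normalized count over 20 libraries (horizontal log axis) for each of the 27702 tested transcripts. Dashed lines mark a log2 fold change of 0.6 in either direction and the dotted line a mean of 50. The 256 lowered (blue) and 184 raised (red) transcripts lie mostly close to the fold threshold, apart from a string of raised transcripts at the top.

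The transcript with the smallest p among those lowered was ENSSSCT00000055013.2. Its normalized counts were 4368, 4224 and 4304 in siPC2 replicates 2, 3 and 4, and 1348, 1240, 1178 and 1350 in siPC2+siMRTF-A replicates 1 to 4. The groups did not overlap, and every library with siMRTF-A lay far below every library without it. The mean fell from 4299 ± 71.8 (SD, n = 3) to 1279 ± 84.4 (SD, n = 4), a log2 fold change of -1.75 (standard error 0.06, edgeR adjusted p = 1.78e-11). In control cells the transcript was low, with 571.8, 560.0, 579.4 and 544.0 in siNR replicates 1 to 4, so it stood between the control and siPC2 levels when MRTF-A was also silenced.

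The second lowered transcript by this rule, ENSSSCT00000035792.4, showed a steeper fall. Its normalized counts were 1218, 1160 and 1179 in siPC2 replicates 2, 3 and 4, and 106.0, 133.2, 133.6 and 126.3 in siPC2+siMRTF-A replicates 1 to 4. No library with siMRTF-A came near the siPC2 range. The mean fell from 1186 ± 29.2 (SD, n = 3) to 125 ± 13 (SD, n = 4), a 9.5-fold decrease (log2 fold change -3.25, standard error 0.15, edgeR adjusted p = 8.6e-10). The siNR libraries held 33.9, 31.3, 31.1 and 45.9, lower than any siPC2+siMRTF-A library. All counts of this transcript are whole numbers, as counts of undivided reads are.

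The same transcripts were also measured after siPC1, in libraries that entered their choice only through the common estimate of the spread and the filters on low counts. ENSSSCT00000055013.2 had normalized counts of 2335, 1998, 2225, 2332 and 2373 in siPC1 replicates 1, 2, 3, 4 and A2, and 988.3, 985.3, 903.7 and 964.0 in siPC1+siMRTF-A replicates 1 to 4. With siMRTF-A added to siPC1, it thus changed by -1.23 on the log2 scale (standard error 0.06, edgeR adjusted p = 4.91e-10). The fall was larger after siPC2 than after siPC1, by -0.52 on the log2 scale (95% interval from -0.69 to -0.35, edgeR adjusted p = 0.0064 for the difference), which is below the fold threshold of 0.6. ENSSSCT00000035792.4 had normalized counts of 148.9, 137.8, 139.4, 164.9 and 131.5 in the siPC1 libraries and 26.7, 29.5, 21.8 and 21.8 in the siPC1+siMRTF-A libraries, a log2 fold change of -2.52 (edgeR adjusted p = 8.35e-09). Its siPC1 level was far under its siPC2 level, but the difference of the siMRTF-A effects did not pass the test (-0.73, 95% interval from -1.15 to -0.31, edgeR adjusted p = 0.124).

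Among the raised transcripts, the smallest p was that of ENSSSCT00000040673.3. Its normalized counts were 1345, 1351 and 1262 in siPC2 replicates 2, 3 and 4, and 2592, 2369, 2385 and 2325 in siPC2+siMRTF-A replicates 1 to 4. All libraries with siMRTF-A lay above all libraries without it. The mean rose from 1319 ± 49.4 (SD, n = 3) to 2418 ± 119 (SD, n = 4), a log2 fold change of 0.87 (standard error 0.05, edgeR adjusted p = 1.12e-08). The siPC2 level was that of the control libraries, which held 1369, 1315, 1316 and 1265 (log2 fold change 0.00, 95% interval from -0.10 to 0.11).

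After siPC1, ENSSSCT00000040673.3 behaved differently. Its counts were 1983, 2081, 1915, 2062 and 1985 in siPC1 replicates 1, 2, 3, 4 and A2, and 1937, 1934, 1992 and 1891 in siPC1+siMRTF-A replicates 1 to 4. The ranges overlapped, and siMRTF-A changed the log2 level by an estimated -0.05 (95% interval from -0.14 to 0.04, edgeR adjusted p = 0.621). The difference between the arms was 0.92 on the log2 scale (standard error 0.07, edgeR adjusted p = 1.57e-06), so for this transcript the siMRTF-A effect after siPC2 differed from that after siPC1.

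The second raised transcript, ENSSSCT00000058795.3, had normalized counts of 3743, 3546 and 3483 in siPC2 replicates 2, 3 and 4, and 5515, 5562, 5531 and 5472 in siPC2+siMRTF-A replicates 1 to 4. The groups were narrow and clearly apart. The mean rose from 3591 ± 136 (SD, n = 3) to 5520 ± 37.3 (SD, n = 4), a log2 fold change of 0.62 (standard error 0.04, edgeR adjusted p = 3.67e-08). Its 95% interval, from 0.54 to 0.70, includes the threshold of 0.6. Without siPC2 replicate 4 the estimate was 0.60 and the call was lost. The control libraries held 1787, 1795, 1763 and 1827, so that siPC2 alone stood above the control level and siPC2+siMRTF-A higher still. After siPC1 the counts were 4812, 4724, 4564, 4627 and 4824 in replicates 1, 2, 3, 4 and A2, and 6679, 6372, 6504 and 6373 in siPC1+siMRTF-A replicates 1 to 4. These groups did not overlap, with a log2 fold change of 0.46 (edgeR adjusted p = 1.4e-07) that did not reach the fold threshold.

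**Figure D2:**
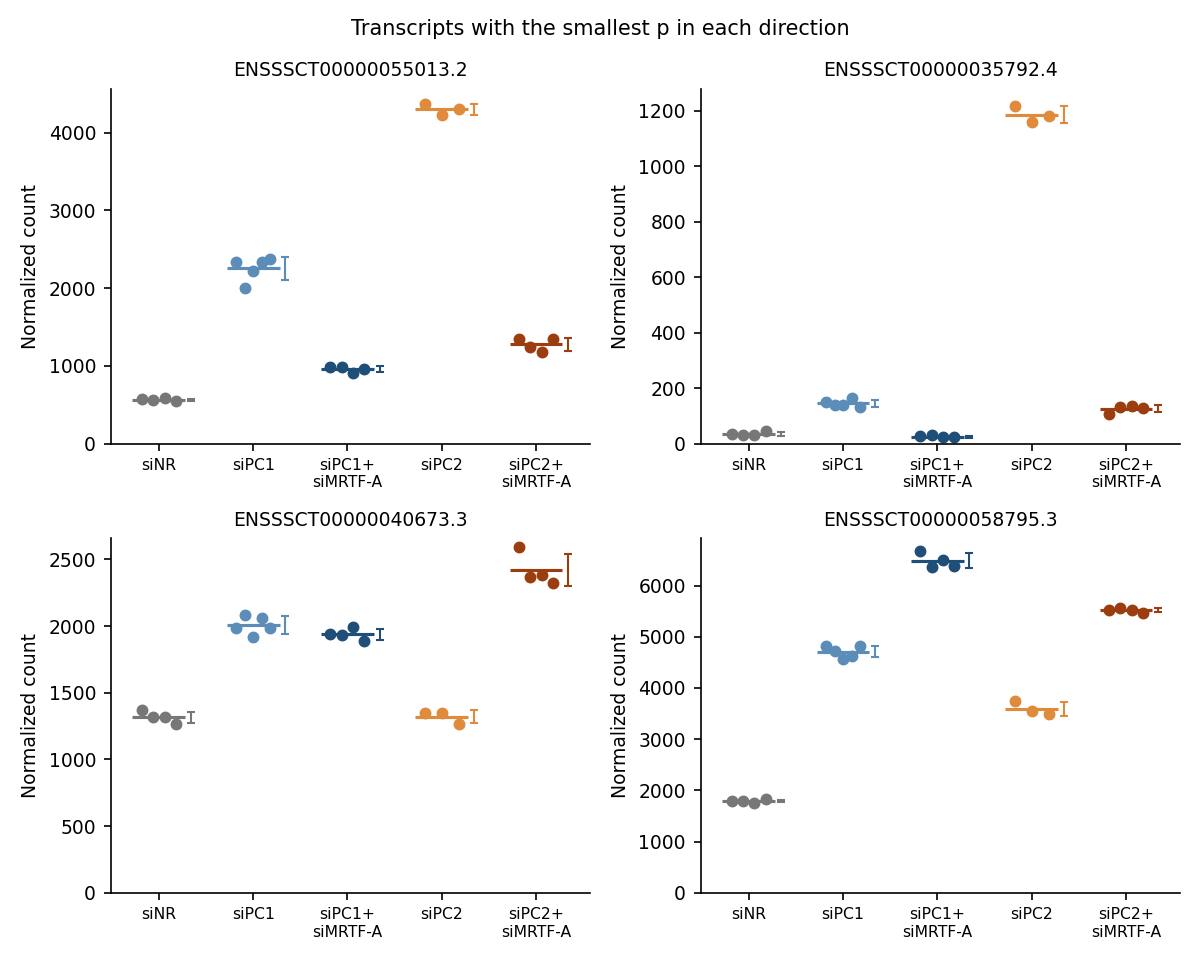
Normalized count in each library (points), group mean (horizontal bar) and SD (error bar) for the 2 lowered (upper row) and 2 raised (lower row) transcripts with the smallest p, in the 5 groups. In every panel the 4 siPC2+siMRTF-A libraries are clear of the 3 siPC2 libraries, and in the lower left panel the siPC1 and siPC1+siMRTF-A libraries overlap.

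The larger changes were few. A fall of more than 2 on the log2 scale was found for 12 transcripts, whose mean normalized counts ranged from 18.8 to 1318 with siPC2 and from 3.15 to 316 with siPC2+siMRTF-A. The largest of these went from 598.5 to 9.59 (log2 fold change -5.92, standard error 1.37, edgeR adjusted p = 0.0157) and had the widest error of the 12. After siPC1, 10 of the 12 were also called lower, against 48% of the 256 lowered and 1.1% of all tested. The median log2 fold change there was -2.04 over the 12. The remaining pair comprised the largest fall, whose log2 fold change after siPC1 was -4.34 (edgeR adjusted p = 0.0753), and a transcript at 18.8 with siPC2 and 3.13 with siPC1, whose log2 fold change after siPC1 was 0.06 (edgeR adjusted p = 0.996). For several of the 12 transcripts siPC2 stood near the control. The fourth in order of size, for example, had means of 495.7 with siNR, 547.1 with siPC2 and 93.5 with siPC2+siMRTF-A, and the seventh had 1271, 1318 and 301.2. Others stood far from it. The siNR means of the first, second, ninth and eleventh were 17.1, 35.6, 9.77 and 150.6, against siPC2 means of 598.5, 1186, 603.6 and 1279. The third, at 18.8 with siPC2, had a siNR mean of 366.5.

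A rise of more than 2 was found for 18 transcripts, and 13 of these had a count of 0 in all 3 siPC2 libraries. Another 5 had siPC2 means from 4.41 to 60.5 and siPC2+siMRTF-A means from 116 to 753. After siPC1, 29.9% of the 184 raised transcripts and 1.18% of all tested were called higher. Of the 5, only the fourth in order of size was also called higher there. It went from 41.8 to 173 on adding siMRTF-A to siPC2 (log2 fold change 2.05, edgeR adjusted p = 0.00926) and from 14.7 to 93.9 on adding it to siPC1 (log2 fold change 2.60, edgeR adjusted p = 0.000219), with a mean of 12.8 in the control.

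The 13 transcripts at 0 in every siPC2 library were described after their values were seen. After siPC1, 0 of the 13 were called, against 29.9% of the 184 raised and 1.18% of all tested called higher there. Only 3 of the 13 had counts in all 5 siPC1 libraries. The log2 fold change after siPC1 was above 0 for 10 of the 13 (76.9%, against 51.5% of all tested). With siPC2+siMRTF-A their means ranged from 34.6 to 826, and 12 of them had counts in all 4 libraries. A count of 0 allows up to 3 reads per library, which corresponds to a normalized count of 5.40 over the siPC2 libraries, and against this floor, which covers counting error only, the transcripts were at least 6.4-fold to at least 153-fold higher with siMRTF-A. With these 13 at their bounds, the log2 fold change of the raised transcripts had a median of 0.80 and a highest value of 7.26. The transcripts were not absent from the line. Their siNR means ranged from 0 to 1267, and 7 of the 13 had counts in all 4 siNR libraries. The transcript at 0 in all 4 siNR libraries had a mean of 92.0 with siPC1. Counts of 0 were not limited to siPC2, since only 1 of the 13 had counts in all 17 libraries of the other groups. None of the 13 had whole-number counts throughout, so each shared reads with other transcripts, and how reads were divided among transcripts was not tested. Of all 20212 transcripts averaging 50 or more, 61 were at 0 in all 3 siPC2 libraries (0.302%), 20 in all 4 siPC2+siMRTF-A libraries (0.099%), 12 in all 5 siPC1 libraries (0.0594%), 23 in all 4 siPC1+siMRTF-A libraries (0.114%) and 56 in all 4 siNR libraries (0.277%). The groups differ in depth and in number of libraries. The number of the 13 that remained called was 6 without siPC2 replicate 3, 7 without siPC2 replicate 4, 8 with the replicate number as a block and 3 with glmTreat.

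**Figure D3:**
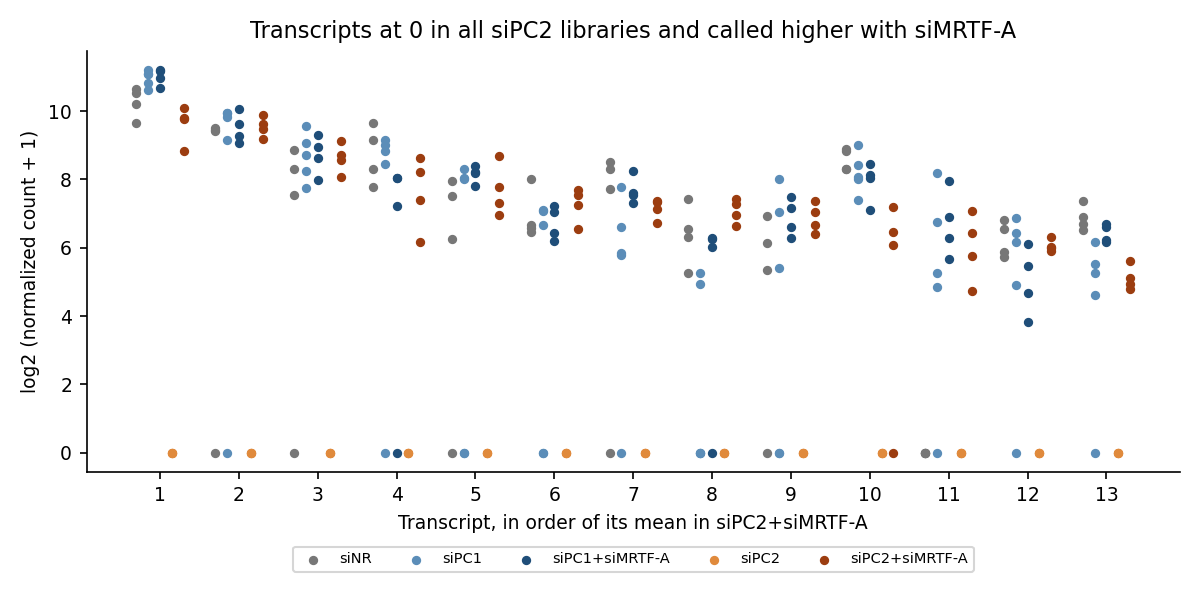
Log2 of the normalized count plus 1 in each library (points, coloured by group) for the 13 transcripts at 0 in all 3 siPC2 libraries and called higher with siMRTF-A. Libraries of other groups also lie at 0, among them all 4 siNR libraries for transcript 11, and only transcript 1 has counts in all 17 libraries outside siPC2.

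Over each called set, the libraries of a group lay close together. Measured from the mean of the siPC2 libraries, the median log2 level of the 256 lowered transcripts was -0.83, -0.80, -0.88 and -0.80 in siPC2+siMRTF-A replicates 1 to 4, and 0.02, -0.01 and 0.00 in siPC2 replicates 2, 3 and 4. The shallow siPC2 replicate 2 was thus not apart from the others in this respect. The 256 transcripts held 1.87% of the reads in each siPC2 library and 1.0% to 1.10% with siMRTF-A. The 184 raised transcripts held 0.455% to 0.480% with siPC2 and 0.743% to 0.866% with siMRTF-A. These libraries chose the transcripts, so the values describe the calls and do not test them. For the same reason the libraries did not overlap for all 256 lowered and for 182 of the 184 raised transcripts, against 9.17% and 9.31% of all tested transcripts in these directions.

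Set beside the control, the lowered transcripts had a median log2 fold change of 0.32 for siPC2 against siNR and of -0.49 for siPC2+siMRTF-A against siNR, with quartiles of -0.23 and 0.95 for the former and of -1.32 and 0.02 for the latter. The raised transcripts had medians of -0.60 (quartiles -1.33 and 0.28) and 0.23 (quartiles -0.46 and 1.19). Over all tested transcripts the medians were 0.00 and 0.03. These comparisons share the siPC2 and the siPC2+siMRTF-A libraries, respectively, with the choice of the transcripts, so they are given as levels only. The direction of the siPC2 effect was thus mixed within both sets.

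The siPC1 arm gave the same comparison in 9 other libraries, 5 of siPC1 and 4 of siPC1+siMRTF-A. The fold changes of the siPC2 arm do not use these libraries, but its calls do in part, through the common estimate of the spread and the filters on low counts, including the mean over 20 libraries. The total of siPC1 replicate 1 was 4421001, against 27984278 to 46931983 in the other siPC1 libraries, and a normalized count of 100 rested on 12.8 reads in it. It correlated at 0.799 with the average of its group, where the other siPC1 libraries had 0.860 to 0.925. Without it, 131 transcripts were lowered in both arms, 60 were raised in both and 81 differed between the arms. Of the 256 lowered transcripts, 123 (48.0%) were also called lower on adding siMRTF-A to siPC1, against 1.1% of all tested transcripts, and 0 were called higher. Of the 184 raised transcripts, 55 (29.9%) were also called higher, against 1.18% of all tested, and 0 were called lower. Seen from the siPC1 arm, the shared transcripts were 40.2% of the 306 lowered and 16.8% of the 327 raised there. The log2 fold change after siPC1 was below 0 for 248 of the 256 lowered transcripts (96.9%, against 48.2% of all tested) and above 0 for 163 of the 184 raised (88.6%, against 51.5%). The siPC1 and siPC1+siMRTF-A libraries did not overlap for 173 of the lowered (67.6%, against 5.03% of all tested) and for 92 of the raised transcripts (50%, against 6.44%), in the same direction as in the siPC2 arm.

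The change after siPC1 was smaller in size, with a median log2 fold change of -0.61 for the lowered and 0.41 for the raised transcripts, where the siPC2 arm, which chose them, had -0.81 and 0.80. The 123 transcripts lowered in both arms had medians of -0.95 after siPC2 and -0.92 after siPC1, and the 55 raised in both had 0.91 and 0.93. Their calls in both arms rest on the same threshold. The 133 lowered transcripts not called after siPC1 had a median of -0.40 there, and 125 of them had a negative value. The 129 raised transcripts not called after siPC1 had a median of 0.28 there, with 108 positive values. Library by library, the 256 lowered transcripts had a median log2 level between -0.40 and -0.32 in the siPC1 libraries and between -1.06 and -1.02 in the siPC1+siMRTF-A libraries, relative to the siPC2 mean, so these libraries did not overlap either. The siNR libraries, between -0.36 and -0.27, lay beside the siPC1 libraries. For the 184 raised transcripts the range was 0.51 to 0.72 with siPC1 and 1.06 to 1.14 with siPC1+siMRTF-A.

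**Figure D4:**
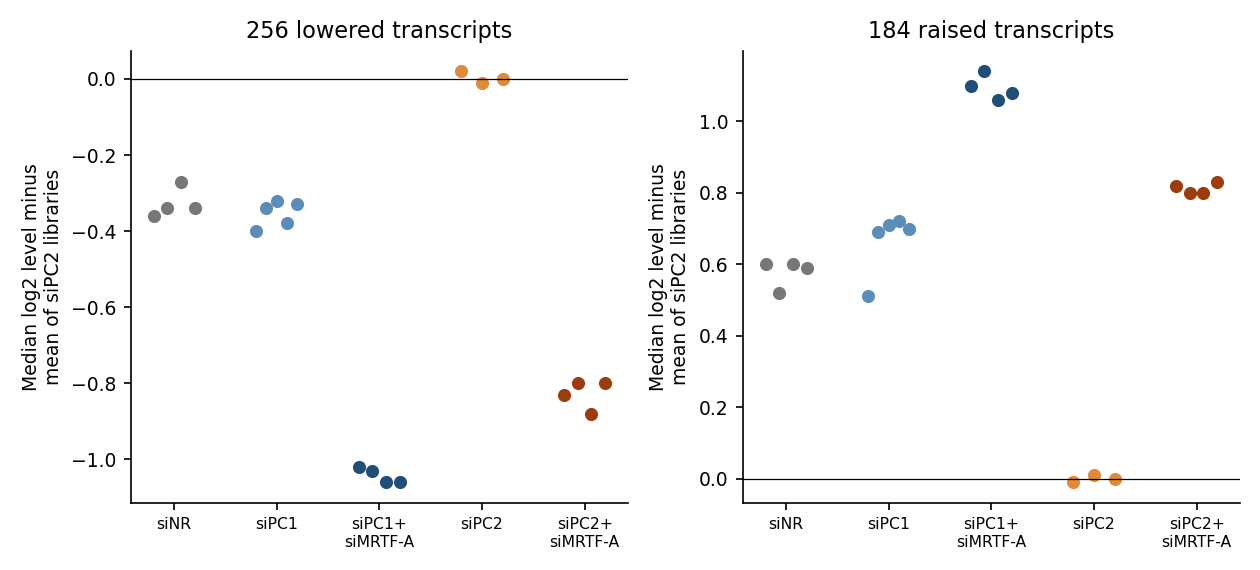
Median over the 256 lowered (left) and 184 raised (right) transcripts of the log2 normalized count plus 1 in each library, minus the mean of the siPC2 libraries (points, one for each of the 20 libraries, by group). The siPC2 and siPC2+siMRTF-A libraries chose the transcripts, and the siPC1 and siPC1+siMRTF-A libraries, whose fold change was not used, are also apart in both panels.

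A call in the siPC2 arm and none in the siPC1 arm does not show that the arms differ, and the difference was therefore tested directly. It was called for 82 of the 27702 transcripts (0.296%), with the siPC2 arm more negative for 46 (0.166%) and more positive for 36 (0.13%). Of the 82, 56 (68.3%) were not called in the siPC2 arm. Of the 46, 6 were called lower in the siPC2 arm and 21 called higher in the siPC1 arm. Of the 36, 19 were called higher in the siPC2 arm and 6 called lower in the siPC1 arm. Of the 256 lowered transcripts, 6 had a called difference with the larger fall after siPC2 and 1 with the larger fall after siPC1. Of the 184 raised transcripts, 19 had a called difference with the larger rise after siPC2, and 5 of these were among the transcripts at 0 in all siPC2 libraries. The same siPC2 libraries enter the call and the difference, so these counts are not independent of the choice. For the other called transcripts, the difference did not pass the test, which does not show that the arms act alike. The number of called differences was sensitive to single libraries. It fell to 51 without siPC2 replicate 3, to 43, 47 and 40 without siPC2+siMRTF-A replicates 1, 2 and 4, to 51 without siPC1 replicate 3, and to 53, 38, 42 and 50 without siPC1+siMRTF-A replicates 1, 2, 3 and 4. DESeq2 called 268. The number raised in both arms was 36 without siPC2 replicate 4, and 87 with DESeq2.

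**Figure D5:**
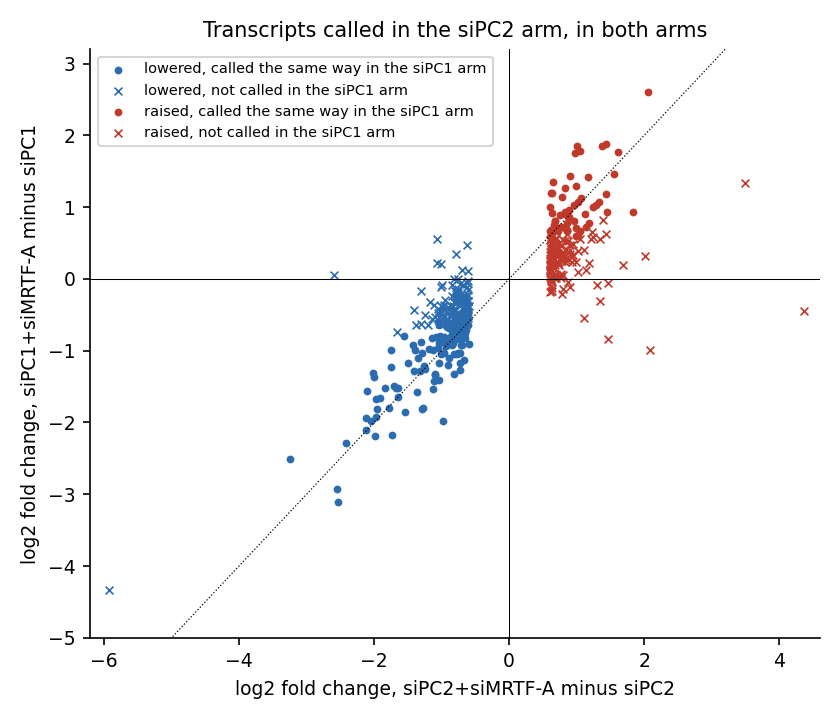
Log2 fold change between siPC1+siMRTF-A and siPC1 (vertical axis) against that between siPC2+siMRTF-A and siPC2 (horizontal axis) for 427 of the 440 transcripts called in the siPC2 arm, with filled points for those called the same way after siPC1 and crosses for the rest. The 13 transcripts at 0 in all siPC2 libraries lie beyond the horizontal axis and are not drawn. Most lowered transcripts lie below 0 in both arms, and the dotted line marks equal change.

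The depth allowed a bound on the change of many transcripts that were not called. Among the 20212 transcripts averaging 50 or more, the 95% interval of the log2 fold change lay wholly between -0.6 and 0.6 for 11434 (56.6%). A change past the fold threshold is then outside the interval. Over all 27702 tested transcripts the number was 11558 (41.7%). With an estimate of exactly 0 the interval used here has no width, so such transcripts count as bounded. The precision followed the number of reads. When the 20212 transcripts averaging 50 or more normalized counts were split by level into 4 classes of 5053, the median standard error was 0.36 in the lowest class (means from 50 to 212), and 0.18, 0.12 and 0.11 in the following classes. The share of lowered transcripts was 0.91%, 1.35%, 1.44% and 1.37% from the lowest to the highest class, and that of raised transcripts 0.772%, 1.11%, 1.03% and 0.732%.

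An estimated count also depends on how reads shared by several transcripts were apportioned. Of the tested transcripts with a mean of at least 50, 278 had whole-number counts in all 20 libraries, as counts of undivided reads are. Of these, 13 were called (4.68%, against 2.18% of all 20212), 10 lower (3.6%) and 3 higher (1.08%). When whole-number transcripts were normalized and tested alone, 10 were lower and 12 higher, so the number raised and the balance of directions depended on that choice, and the cause was not tested. In the fit of all transcripts, the lowered transcripts with whole counts had log2 fold changes from -3.25 to -0.68. After siPC1, 8 of the 10 had a negative value, against 96.9% of the 256 lowered and 48.2% of all tested. Of the 10, 3 were called lower there, against 48% of the 256 lowered and 1.1% of all tested. The 3 raised transcripts had log2 fold changes of 0.74, 0.92 and 2.05. After siPC1 all 3 were positive, against 88.6% of the 184 raised and 51.5% of all tested. Of the 3, 1 was called higher there, against 29.9% of the 184 raised and 1.18% of all tested. The other 427 called transcripts did not have whole counts in every library, and a change in the transcript was not separated from a change in the division of reads. They include ENSSSCT00000055013.2, whose counts were whole in siPC2 replicates 2, 3 and 4 and in siPC2+siMRTF-A replicates 1 and 3. They also include both named raised transcripts, ENSSSCT00000040673.3 and ENSSSCT00000058795.3, whose counts were not whole in any of the 20 libraries.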

How the data were processed

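RNA-Seq libraries of LLC-PK1 cells were analysed (20 libraries in 5 groups, 7 of them in the comparison). The authors trimmed the reads, quantified them with Salmon 0.14.1 against the Ensembl pig coding sequences (build Sscrofa11.1), and deposited estimated counts per transcript without normalization. Reads in untranslated regions were thus not counted. Of the 46295 transcripts listed, 8733 had no count in any library. Its 20 columns all matched a sample title.

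After rounding, the estimated counts of the 5 groups were fitted together by the quasi-likelihood method of edgeR 4.0.16 in R 4.3.3, with filterByExpr by group and TMM scaling. Normalized counts were scaled to the mean effective library size. Standard errors and intervals are those implied by the F statistic. Levels use log2 of the normalized count plus 1. Counts were called whole within 1e-06. DESeq2 1.42.0, other scalings, filters and fold rules, the replicate block and each library of both arms left out in turn were alternatives. The libraries of the siPC1 arm were left out only for the counts over both arms, and the siNR libraries were not left out.

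The 2 transcripts with the smallest p in each direction are named. The comparison, lists and rules were chosen with earlier results of these data known. Gene lists and cell type markers were not used, since no identifier could be paired with a gene. No pair of libraries in a group agreed within sampling noise (chi-square per degree of freedom at least 8.98). The estimated counts include divided reads, so this measure cannot decide whether the libraries came from separate cultures. Each library was counted as 1 replicate, following the labels.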

Additional observations from a re-analysis of the deposited data

Results flagged for a closer look

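The effect of siMRTF-A differed between the arms, by the direct test, for 82 transcripts past the fold threshold of 0.6, of which 1 was among the named transcripts. For ENSSSCT00000040673.3 the log2 fold change after siPC2 exceeded that after siPC1 by 0.92 (edgeR adjusted p = 1.57e-06), with higher counts in all 4 siPC2+siMRTF-A libraries than in the 3 siPC2 libraries and overlapping counts in the siPC1 arm. For ENSSSCT00000055013.2 the difference was -0.52 (edgeR adjusted p = 0.0064), with a fall in both arms, and was not among the 82 because it is smaller than 0.6. Dixon's test on single libraries passed its critical value in 0 of 28 groups tested, where chance gives about 1 in 20. With 4 or 5 libraries a group it detects little. It did not pass for the total of siPC1 replicate 1, 4421001 against at least 27984278 in the rest of its group, and the siPC2 group, with 3 libraries, was not tested.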

How the results depend on the processing

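The 256 lowered, 184 raised, 123 lowered in both arms, 55 raised in both arms and 82 differing between arms became 661, 587, 390, 257 and 171 without a fold threshold, 41, 12, 29, 3 and 5 with glmTreat, and 10, 12, 3, 6 and 3 among whole-number transcripts tested alone (1000 tested). DESeq2, which gave no adjusted p for 177 transcripts, called 296 raised, 87 raised in both arms and 268 differing between arms. With no filter, 53 differed between arms. The cause of these shifts was not tested. Leaving out each of the 7 libraries of the siPC2 arm in turn gave 208 to 243 lowered and 134 to 165 raised transcripts. For the counts over both arms, each library of the siPC1 arm was also left out in turn, a choice made after seeing the data. These counts were 105 to 131 lowered in both arms, 36 to 63 raised in both arms and 38 to 96 differing. Without the 2 libraries of lowest total, also chosen after seeing the data, 266 were lowered and 184 raised. The other alternatives stayed within 1.5 times. Library totals in place of TMM factors gave 234 lowered and 182 raised, and moved the median log2 fold change from 0.02 to 0.03. The call of ENSSSCT00000058795.3 was lost without siPC2 replicate 4 (log2 fold change 0.60) and with glmTreat (edgeR adjusted p = 1), and the other named calls held in the 17 alternatives run on them.

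With the replicate number as a block and siPC1 A2 left out, 270 transcripts were lowered, 181 raised, 131 lowered in both arms, 54 raised in both arms and 88 differing. The deviations of same-numbered siPC2 and siPC2+siMRTF-A libraries correlated at -0.04, 0.17 and -0.03 for numbers 2, 3 and 4 (Spearman). Of the 3 siPC2 libraries only number 3 correlated best with its own. The labels do not say whether libraries of the same number were prepared together, and so few values cannot decide it.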
